A study of Mus musculus with 2688 samples.

Results

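Microglia of the cerebellum were compared between embryos and mice of 16 weeks. The members were all wells that the labels place in the cerebellum at one of these ages, after a filter on genes detected and on mitochondrial reads, and numbered 361 cells in 8 region samples, out of 2402 cells in 51 region samples of the whole series. A region sample is the sum of the cells of 1 region that carry the same replicate label. The cells came from mice of the outbred CD1 strain labelled WT, and the labels name no transgene, allele or treatment for any group. Single CD11b- and CD45-stained cells had been sorted from perfused tissue by flow cytometry, with antibodies to Ly6C, Ly6G and CD206 in the same panel, into 384-well plates for SmartSeq2, which reads full-length transcripts without molecular identifiers. The embryonic cerebellum and the 16-week cerebellum had 4 replicates each, the 3-week cerebellum, shown beside them, had 3, and the spinal cord at the embryonic age and at 16 weeks had 4 each. The day of gestation and the sex of the animals were not given in the labels used here.

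Microglia are macrophages that live in the brain and spinal cord for life. They descend from yolk sac progenitors that enter the neural tube early in development, divide there while the tissue grows, and later persist by slow self-renewal under signals such as CSF1 receptor ligands and TGF-beta. Genes such as P2ry12, Tmem119 and Sall1 mark the resting state of mature microglia, whereas genes such as Apoe, Igf1 and Lgals1 are known from phagocytic and disease-associated states.

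The embryonic samples held 42 to 47 cells and 16360283 to 18884413 gene counts each, and the 16-week samples held 44 to 47 cells and 7834240 to 11736151 gene counts. A cell had a median of 3732 to 4402.5 detected genes in the embryonic samples and 2253 to 2424 at 16 weeks. With every cell thinned to 40000 reads the medians were 3031.5 to 3393.5 and 1881.5 to 2013.5. Mitochondrial genes took a median of 2.76% to 4.58% of the counts of an embryonic cell and 1.48% to 2.05% at 16 weeks, and spike-ins 0.095% to 0.114% and 0.299% to 0.344%. The part that these differences have in the results below was not tested. All embryonic cerebellum cells lay on 1 plate and all 16-week cerebellum cells on another, so that age and plate cannot be told apart within the cerebellum. Blank wells held 3107 to 17592 counts on the embryonic plate and 2272 to 3466 on the 16-week plate.

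The sexes were also unevenly spread over the ages. Among the 178 embryonic cells, 56 had at least 10 reads of Xist, the RNA of the inactive X chromosome, and fewer than 10 reads of 4 Y-linked genes summed, 69 had at least 10 reads of the Y-linked genes and fewer of Xist, 0 had both and 53 had neither. The Xist cells numbered 18, 7, 10 and 21 in embryonic replicates 1 to 4 and the Y cells 18, 21, 19 and 11, so every embryonic sample held cells of both sexes and thus of more than 1 embryo, although the labels speak of replicate mice. The 16-week samples had 36 to 39 Xist cells each and 0 Y cells. Reads of the Y-linked genes numbered 9967 in the embryonic and 2 in the 16-week cerebellum. The labels also say that regions were taken from the same mice, so an embryonic cerebellum and spinal cord may share animals. For many of the lists below the counts are therefore also given for the Xist cells alone, a choice made after these values were seen. That subset has only 7 to 21 cells in an embryonic sample.

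Levels below are CPM, counts scaled to library size with TMM over the 51 region samples, and are not divided by gene length, so they compare samples and not genes. They were not scaled to the spike-ins, whose share of the counts was larger at 16 weeks, as given above. A rise or fall is therefore relative to the other genes of a sample and does not give a change in RNA per cell. Folds and tests are from edgeR's quasi-likelihood F test on the 8 cerebellum samples, with Benjamini-Hochberg adjusted p over the 11811 genes that passed the filter on low counts. A gene is said to have risen or fallen toward 16 weeks where its adjusted p was under 0.05. Of the genes tested 570 rose, or 4.83%, and 815 fell, or 6.9%, and 2921 had an unadjusted p under 0.05. Counts of called genes in the lists below are to be read beside these shares. The median log2 change of all genes tested was 0.04. Samples of the 2 ages did not overlap for 1348 of the 1385 called genes and for 22.8% of all genes tested. Folds above 8 were found for 114 rises and 232 falls. DESeq2, run without the filter on low counts, called 2813 of 30106 genes, among them 1363 of the 1385 in the same direction. Without the wells of plate columns 1 and 2, whose deposited counts had to be corrected, 919 genes were called, without embryonic replicate 2, 916, and in the Xist cells 384 of 10592. Of the 1385 genes 1235 were tested in the Xist cells, where 1233 moved in the same direction and 354 passed the threshold. The Xist cells are part of the cells that gave the calls, 149 of 183 at 16 weeks and 56 of 178 in embryos. Agreement in direction is therefore largely built in and does not test the part of sex.

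The cells carried the markers of microglia, and all 8 marker genes on the list had reads in every sample at both ages. Csf1r, the receptor on which microglia depend for survival, lay at 11628, 9668, 11553 and 9985 CPM in the 4 embryonic samples and at 12776, 13229, 12509 and 11887 CPM at 16 weeks. Each 16-week value was above each embryonic value, and the rise was small, 1.24-fold (adjusted p = 0.0387). It lost its call in 6 of the 8 fits that left out 1 sample, with an adjusted p of up to 0.105. Sall1, a transcription factor that among macrophages is typical of microglia, had 370 ± 31.8 and 413 ± 37.5 CPM (SD, n = 4 each), and its change did not pass the test (adjusted p = 0.339). Of the genes for the stained surface proteins, Itgam (CD11b) had 709 ± 185 and 961 ± 137 CPM and did not pass (adjusted p = 0.131), and Ptprc (CD45) rose 2.10-fold, from 393 ± 59.7 to 783 ± 68.6 CPM (adjusted p = 0.00152). Ly6c1 and Ly6c2 had 0 reads in the 8 samples, and Ly6g had 38 reads, all of them in the embryonic samples.

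Genes of the mature microglial state rose more often than they fell. Of 29 tested members of the homeostatic list 15 rose, 5 fell and 9 did not pass, with a median log2 change of 0.81. Tmem119, a membrane protein used as a microglia marker, was at 1149, 1166, 1232 and 1326 CPM in the embryonic samples and at 4359, 4987, 5431 and 4476 CPM at 16 weeks. The samples of the 2 ages were well apart, by a factor that the fit put at 4.17 (log2 2.06 ± 0.10, SE; adjusted p = 9.22e-06). Selplg, the P-selectin ligand, gave the smallest adjusted p of the named genes, with 745, 657, 719 and 730.2 CPM in embryos against 5946, 6153, 6322 and 4945 CPM at 16 weeks, a rise of 8.64-fold (log2 3.11 ± 0.11; adjusted p = 6.05e-07). Its embryonic values hardly varied.

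Cst3, the secreted protease inhibitor cystatin C, went from 7751, 7869, 10902 and 7285 CPM to 30763, 28641, 29954 and 30814 CPM (3.76-fold; adjusted p = 1.29e-05), with embryonic replicate 3 above the other 3 embryonic samples. The receptor P2ry12, which senses ADP released by injured cells, rose less, from 4382, 4931, 5356 and 4649 to 8339, 9063, 8556 and 8627 CPM (1.89-fold; adjusted p = 5.10e-05). Further rises of the list included P2ry13, Cx3cr1, Csf1r, Siglech, Gpr34, Olfml3, Slc2a5, Ctss, Slco2b1 and Golm1. On GRCm38 Tmem119 lies at chr5:113793729-113800516, Selplg on the same chromosome at chr5:113818536-113832644, Cst3 at chr2:148871722-148875692 and P2ry12 at chr3:59216272-59262871.

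Not all genes of that list rose. Fcrls, an Fc receptor-like molecule, fell from 6322, 7230, 7856 and 6440 CPM to 1408, 642, 1025 and 1152 CPM, 6.24-fold (log2 -2.64 ± 0.21; adjusted p = 5.10e-05). Crybb1, a crystallin gene known from embryonic and neonatal microglia, fell from 420.5, 549, 539 and 707 CPM to 56.1, 13.9, 50.3 and 69.7 CPM, 11.02-fold (adjusted p = 8.24e-04). In both genes every 16-week sample was below every embryonic one. Tyrobp, the adaptor of TREM2, Bin1 and Lag3 fell as well. Slc2a5 lost its call in 5 of the 8 fits with 1 sample left out (adjusted p up to 0.0691). In the Xist cells 12 members of the list rose and 3 fell of 29, and without embryonic replicate 2 the list had 3 falls.

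**Figure D1:**
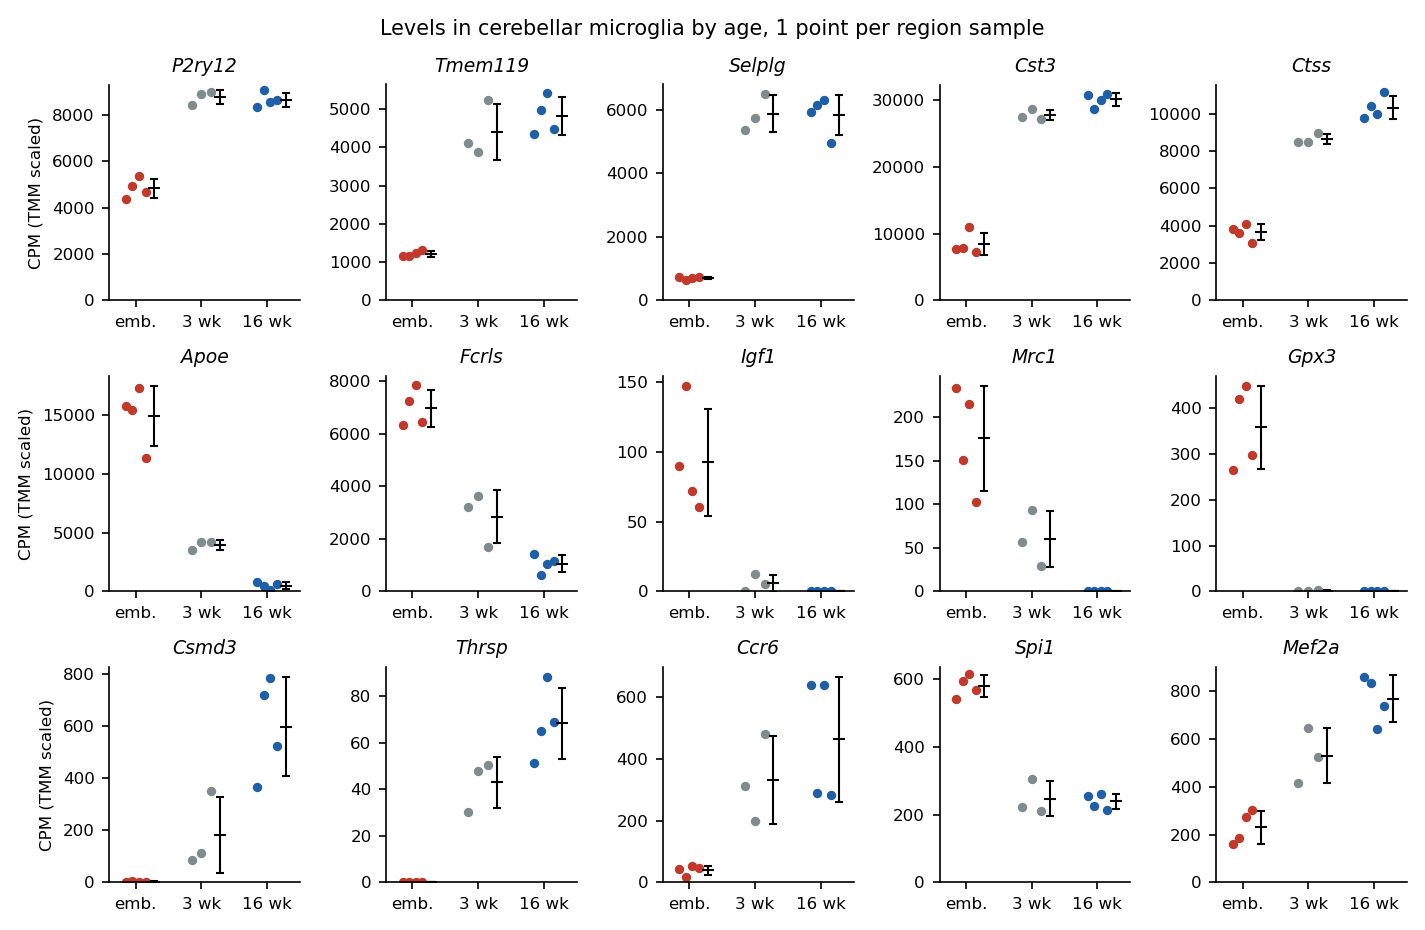
CPM (y axes, from 0) of 15 genes in each cerebellum sample by age (x axes); points are region samples, embryonic red (n = 4), 3 weeks grey (n = 3), 16 weeks blue (n = 4), and black bars the mean and SD. In the top row the 16-week points lie above all embryonic points, as for Tmem119 with an embryonic maximum of 1326 and a 16-week minimum of 4359, and in the middle row they lie below them.

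The rises of largest size included genes with few or no embryonic reads. Mlph, melanophilin, an adaptor of vesicle transport, had 0 reads in the embryonic samples and 31.7, 106, 109.7 and 42.6 CPM at 16 weeks, which is at least 1578-fold higher when the embryonic side is set at 3 reads over the 4 samples. Thrsp, a nuclear regulator of lipid synthesis, had 1 read in embryos and 51.4, 65.2, 88.4 and 68.9 CPM at 16 weeks, a ratio of reads of 4445-fold (95% counting interval 798 to 175585). Reads without molecular identifiers are not independent molecules, so such bounds and intervals cover counting error only. Csmd3, a large membrane protein with complement control domains, went from 0.425, 6.93, 0.269 and 0.586 CPM to 366, 718, 787 and 525 CPM, a 305-fold rise (adjusted p = 9.09e-04). Embryonic replicate 2 held most of its embryonic reads, and without that sample the log2 rise was 10.49 in place of 8.25.

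Tgm2, a transglutaminase that cross-links proteins, went from 0, 0.0568, 0 and 0.176 CPM to 20.6, 45.5, 29.9 and 132 CPM (872-fold; adjusted p = 6.08e-04), and its log2 rise was 10.96 without embryonic replicate 4 and 8.95 without 16-week replicate 4. Tnfsf13b, the B cell survival factor BAFF, went from 0.118 ± 0.197 to 75.6 ± 19.1 CPM (SD, n = 4 each; 617-fold), a log2 rise of 11.34 without embryonic replicate 4 in place of 9.27. Lrrc3 rose 45.4-fold and Nav2, a helicase-like protein named for neurite growth, 31.6-fold. Hcar2, the receptor for hydroxybutyrate and niacin, rose 43.6-fold (adjusted p = 0.0288), and Trpm2, a calcium channel gated by ADP-ribose, rose 27.1-fold (adjusted p = 0.0413). Naalad2 rose 29.6-fold. With 1 sample left out Hcar2 lost its call in 3 of 8 fits, Naalad2 in 6 and Trpm2 in 7, with adjusted p of up to 0.0701, 0.115 and 0.112. Without embryonic replicate 4 the log2 rise of Trpm2 was 6.66 in place of 4.76 and that of Naalad2 6.46 in place of 4.89, and without embryonic replicate 2 that of Hcar2 was 6.34 in place of 5.45. The other 2 were P3h2, a collagen prolyl hydroxylase, with 18.7-fold, and Lrba, a protein of vesicle trafficking, with 17.9-fold. For each of these 12 genes the lowest 16-week sample was above the highest embryonic sample, which the rule that picked them required. By absolute size of the difference the largest rises included Cst3, Ctss, Selplg, P2ry12 and Malat1, a noncoding nuclear RNA, which went from 1097 ± 256 to 5259 ± 339.9 CPM (5.06-fold; adjusted p = 2.92e-05).

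The falls of largest size were in genes that were nearly absent at 16 weeks. Emilin1, an elastin-associated glycoprotein of the matrix, was at 154 to 230.2 CPM (199.8 ± 32.7, SD, n = 4) in the embryonic samples and had 0 reads in the 183 cells of 16 weeks, and was thus at least 2688-fold lower. Emid1, which shares its EMI domain, was at 44.6, 94.1, 118 and 122 CPM in embryos and also had 0 reads at 16 weeks (at least 1278-fold lower). Gpx3, an extracellular glutathione peroxidase, went from 264, 420.1, 449 and 299 CPM to 2 reads in all, a ratio of reads of 7240-fold (95% counting interval 2004 to 59782). The embryonic samples of these 3 genes were each above 40 CPM.

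Cxcr2, the receptor for CXCL1 and related chemokines known from neutrophils, was at 44.1, 68.5, 39.2 and 86.5 CPM in embryos and had 0 reads at 16 weeks (at least 819-fold lower). Igf1, a growth factor that microglia of the early postnatal brain supply to neurons and oligodendrocytes, went from 89.98, 148, 72.3 and 60.7 CPM to 1 read, a ratio of reads of 3810-fold (95% counting interval 684 to 150494). Mrc1, the mannose receptor whose protein CD206 was stained for the sort, went from 102 to 234 CPM (176 ± 60.3) to 10 reads, all in 16-week replicate 3, a fall that the fit put at 638-fold (log2 -9.32 ± 1.06; adjusted p = 4.71e-04) and at a log2 of -14.23 without that sample, where its 16-week reads were 0 and the value depends on the fit. The remaining named falls were the cell division genes Ccnb2, Bub1b, Uhrf1, Cdca3 and Aurkb, described below, and the Y-linked Eif2s3y, a subunit gene of a translation factor, at 82.1, 65.1, 84.3 and 34.2 CPM in embryos and 0 reads at 16 weeks. The 4 Y-linked genes called were Eif2s3y, Ddx3y, Kdm5d and Uty, and Xist rose 3.82-fold (adjusted p = 0.0201), in the direction of the sex make-up given above. Xist lost its call without embryonic replicate 3 and without 16-week replicate 3 (adjusted p up to 0.0647).

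By absolute size the falls were led by Apoe, which encodes the lipid carrier apolipoprotein E. It lay at 15754, 15372, 17244 and 11286 CPM in the embryonic samples, at 3487, 4198 and 4193 CPM in the 3-week samples and at 779.8, 467, 135 and 625 CPM at 16 weeks. No sample of an age overlapped with another age, and from embryo to 16 weeks the fall was 28.2-fold (log2 -4.82 ± 0.47; adjusted p = 1.90e-04). After thinning, 100% of embryonic cells and 31.1% of 16-week cells had an Apoe read. Ctsb, the protease cathepsin B, fell from 14072 ± 2720 to 3461 ± 545 CPM (SD, n = 4 each; 3.85-fold), and Sepp1, the selenium carrier selenoprotein P, from 7940 ± 1223 to 3258 ± 150.5 CPM (2.31-fold). Actb and Tmsb4x are given below with the cytoskeleton. Apoe lies at chr7:19696109-19699188 on GRCm38.

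Apoe belongs to the list of phagocytic and disease-associated microglia genes, of which 7 of 19 tested members fell and 1 rose, with a median log2 change of -2.22. Csf1, a ligand of the CSF1 receptor, was at 88.9, 92.1, 62.9 and 142 CPM in embryos and 0.743, 12.3, 5.97 and 16.5 CPM at 16 weeks (10.3-fold lower; adjusted p = 0.0182). Lgals1, the sugar-binding galectin 1, was at 75.96, 79.6, 90.3 and 97.3 CPM against 20.1, 12.6, 12.7 and 22.7 CPM (4.77-fold lower; adjusted p = 0.00242). Cd63, a tetraspanin of late endosomes, fell 3.26-fold, and Igf1, Lyz2 and Ank fell too. Cd9, another tetraspanin of the list, rose 1.67-fold, from 512, 699, 728 and 718 to 762, 952, 1303 and 1180 CPM (adjusted p = 0.0272). With 1 sample left out Cd9 lost its call in 6 of 8 fits (adjusted p up to 0.0900), and Csf1 lost it without embryonic replicate 4 and without 16-week replicate 3 (up to 0.0532). The number of rises was 0 or 1 with 1 sample left out. In the Xist cells 5 of 15 tested members fell and 0 rose.

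Genes of lipid and cholesterol handling fell in 10 of 32 cases and rose in 1, Thrsp, with a median log2 change of -0.75. Plin2, the coat protein of lipid droplets, was at 413, 676, 652 and 430.3 CPM in embryos and at 40.01, 46.5, 74.99 and 94.7 CPM at 16 weeks, a fall of 7.99-fold (adjusted p = 3.31e-04). Apoc1, a small apolipoprotein encoded beside Apoe, went from 39.3 ± 5.61 CPM to 16 reads, all in 16-week replicate 2, and lost its call without embryonic replicate 3 (adjusted p = 0.0523). Abca1, which exports cholesterol to apolipoproteins, fell 3.24-fold (adjusted p = 0.00238), and Npc2, which carries cholesterol out of lysosomes, 2.46-fold (adjusted p = 8.07e-04). Abcg1, Lrp1, Scarb1, Fasn and Scd2 fell as well. Falls of the list numbered 6 to 11 with 1 sample left out, the lowest without embryonic replicate 3, and in the Xist cells 6 of 31 members fell and 2 rose.

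Lysosomal genes moved both ways, with 13 falls and 5 rises among 39 tested members and a median log2 change of -0.11. Among the cathepsins, which are lysosomal proteases, Ctsb, Ctsa, Ctsd, Ctsf and Ctsl fell and Ctsh, Ctsc and Ctss rose. Ctsh was at 219, 199.9, 199 and 274 CPM in embryos and at 1026, 1074, 1055 and 1194 CPM at 16 weeks (5.15-fold higher; adjusted p = 1.29e-05). Ctsc, which activates serine proteases, was at 509, 463, 479.7 and 479.5 against 1381, 1793, 1297 and 1580 CPM (3.30-fold higher; adjusted p = 3.48e-05). Ctss, the cathepsin that processes the invariant chain of MHC class II, rose 2.98-fold from 3654 ± 435 to 10338 ± 616 CPM. Ctsd lost its call in 7 of the 8 fits with 1 sample left out (adjusted p up to 0.0865). The summed level of the list overlapped between the ages, at 79184 to 100976 CPM in embryos and 79152 to 84407 CPM at 16 weeks. In the Xist cells 9 members fell and 4 rose.

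Many lysosomal genes are known to carry the letters CACGTG, which the transcription factor TFEB binds, near their start. These letters are their own reverse complement and were found in 10 of the 34 RefSeq windows (29.4%) of 250 bases before the start of 31 matched genes of the list, and in 6.0% of all 32851 windows. Among the windows of genes that fell 5 of 13 held them, and among those that rose 0 of 4. The window of Lamp1, which encodes a main membrane protein of lysosomes and fell, is shown because it holds 4 copies, in capitals. It lies at chr8:13158911-13159160 (plus strand) on GRCm38.p6.
Lamp1: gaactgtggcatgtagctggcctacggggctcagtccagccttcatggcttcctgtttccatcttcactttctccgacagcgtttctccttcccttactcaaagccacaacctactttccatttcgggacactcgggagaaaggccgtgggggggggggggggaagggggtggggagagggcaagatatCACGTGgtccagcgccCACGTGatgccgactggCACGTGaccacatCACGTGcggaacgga
A match describes the letters of the window and shows no binding.

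Cell division was found in the embryonic samples and was below detection at 16 weeks. A cell was called cycling when it had reads of at least 5 of 20 G2/M genes after thinning to 40000 reads. Of the embryonic cells 9 of 42, 11 of 46, 5 of 43 and 7 of 44 were cycling in replicates 1 to 4, or 21.4%, 23.9%, 11.6% and 15.9%, with a mean of 18.2% ± 5.52 (SD, n = 4). At 16 weeks 0 of 177 scored cells were cycling, which allows a share of up to 1.69%, and at 3 weeks 0 of 145, which allows up to 2.07%. These bounds pool the cells of each age and cover the counting of cells only, not the spread between samples. All 4 embryonic shares were above all 4 shares of 16 weeks, with an exact two-sided permutation p = 0.0286, the smallest that 4 against 4 samples can give. With a sample left out the smallest possible p is 0.0571, which each of the 8 such tests gave.

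Of 20 tested G2/M genes 18 fell and 0 rose, with a median log2 change of -7.89, which does not move with the genes of 0 reads set at their bound, and of 20 S phase genes 14 fell and 0 rose, with a median of -3.60. The summed CPM of the G2/M list was 1864, 2163, 676.7 and 1286 in the embryonic samples and 27.97, 9.0, 5.34 and 6.5 at 16 weeks, so that embryonic replicate 3 was low and still far above every 16-week sample. That of the S phase list was 2173, 2030.1, 1924 and 2044 in embryos and 271, 254, 250.3 and 175 at 16 weeks. Ccnb2, a cyclin that drives entry into mitosis, was at 90.8, 158, 7.79 and 94.2 CPM in embryos and had 0 reads at 16 weeks (at least 1231-fold lower). Top2a, the topoisomerase that untangles sister chromatids, was at 140.3, 199.9, 148 and 159 CPM and at 1.32, 0, 0.524 and 0.120 CPM (293-fold lower; adjusted p = 2.18e-04). Without 16-week replicate 1 the log2 fall of Top2a was -9.44 in place of -8.20.

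The mitotic kinase gene Aurkb went from 90.9 ± 37.1 CPM to 2 reads, a ratio of reads of 1874-fold (95% counting interval 519 to 15477). Bub1b, of the spindle checkpoint, went from 72.8 ± 46.6 CPM to 0 reads (at least 1008-fold lower), Kif11, the motor that separates spindle poles, from 47.1 ± 32.9 CPM to 0 (at least 647-fold lower), and Cdca3, which triggers mitotic entry, from 51.5 ± 46.6 CPM to 0 (at least 723-fold lower). For both genes the fitted value, which depends on the fit where reads are 0, was smaller without 1 embryonic sample: the log2 fall of Kif11 was -11.65 without replicate 1 in place of -12.29, and that of Cdca3 -11.49 without replicate 2 in place of -12.39. Of the replication genes, Uhrf1, which keeps DNA methylation through replication, was at 108, 58.3, 47.2 and 63.9 CPM in embryos and had 0 reads at 16 weeks (at least 944-fold lower). Mcm5 and Mcm6, subunits of the replicative helicase, were at 277 ± 32.9 and 326 ± 24.3 CPM in embryos and at 14.8 ± 11.7 and 19 ± 14.4 CPM at 16 weeks (17.8-fold and 16.3-fold lower; adjusted p = 0.0243 and 0.0257). Histone genes fell in 7 of 19 cases and rose in 0, among them the replication-dependent Hist1h1b and Hist1h2bc and the variant H2afx. With 1 sample left out Mcm5 lost its call in 5 of 8 fits, Mcm6 and H2afx in 6 and Hist1h2bc in 4 (adjusted p up to 0.0668, 0.0673, 0.117 and 0.0648). S phase genes called numbered 9 to 13, with 9 when any embryonic sample was left out, and histone genes called 3 to 6, with 3 without embryonic replicate 1 or 2. In the Xist cells alone 2 of 10 tested G2/M genes, 0 of 16 S phase genes and 0 of 17 histone genes fell.

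Promoters of division genes are known for a few short elements, which is why 4 of them are shown. The CHR element, TTTGAA on either strand, is bound by the MuvB complexes that control G2/M genes, and the E2F element, searched as TTTNGCGC on either strand, is bound by E2F factors at S phase genes. The windows are the 250 bases before the start in RefSeq, read 5′ to 3′ along the gene, with the element in capitals. Those of Ccnb2, at chr9:70421555-70421804 (minus strand), and Kif11, at chr19:37376132-37376381 (plus strand), hold the CHR element, and those of Uhrf1, at chr17:56304063-56304312 (plus strand), and Mcm6, at chr1:128359706-128359955 (minus strand), the E2F element, all on GRCm38.p6.
Ccnb2: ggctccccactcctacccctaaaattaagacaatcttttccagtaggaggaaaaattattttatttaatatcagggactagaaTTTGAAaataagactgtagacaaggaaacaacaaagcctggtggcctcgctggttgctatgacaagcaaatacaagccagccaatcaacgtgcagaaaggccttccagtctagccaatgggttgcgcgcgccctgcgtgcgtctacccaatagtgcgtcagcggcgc
Kif11: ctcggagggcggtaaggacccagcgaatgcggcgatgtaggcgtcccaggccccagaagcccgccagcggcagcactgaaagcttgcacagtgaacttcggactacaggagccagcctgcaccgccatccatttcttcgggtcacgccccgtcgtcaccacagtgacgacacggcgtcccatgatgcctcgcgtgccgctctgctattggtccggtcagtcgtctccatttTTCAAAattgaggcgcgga
Uhrf1: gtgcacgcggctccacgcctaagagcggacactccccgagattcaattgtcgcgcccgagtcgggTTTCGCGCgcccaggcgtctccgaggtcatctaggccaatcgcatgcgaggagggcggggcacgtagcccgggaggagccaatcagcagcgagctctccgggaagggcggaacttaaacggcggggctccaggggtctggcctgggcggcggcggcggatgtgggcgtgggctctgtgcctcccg
Mcm6: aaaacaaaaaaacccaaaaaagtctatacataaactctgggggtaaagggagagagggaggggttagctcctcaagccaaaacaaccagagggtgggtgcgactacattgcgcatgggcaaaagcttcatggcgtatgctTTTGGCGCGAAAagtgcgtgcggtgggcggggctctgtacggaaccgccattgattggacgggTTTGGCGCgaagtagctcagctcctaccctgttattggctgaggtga
CHR letters were in 7 of 17 windows of the G2/M list (41.2%) and in 16.0% of all 32851 windows. E2F letters were in 4 of 19 windows of the S phase list (21.1%), which matched 17 of its 20 genes, and in 1.1% of all windows. Of the 15 windows of G2/M genes that fell 6 held the CHR letters, and of the 14 windows of S phase genes that fell 3 held the E2F letters. Windows without a match show only that these letters are not in the 250 bases.

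**Figure D2:**
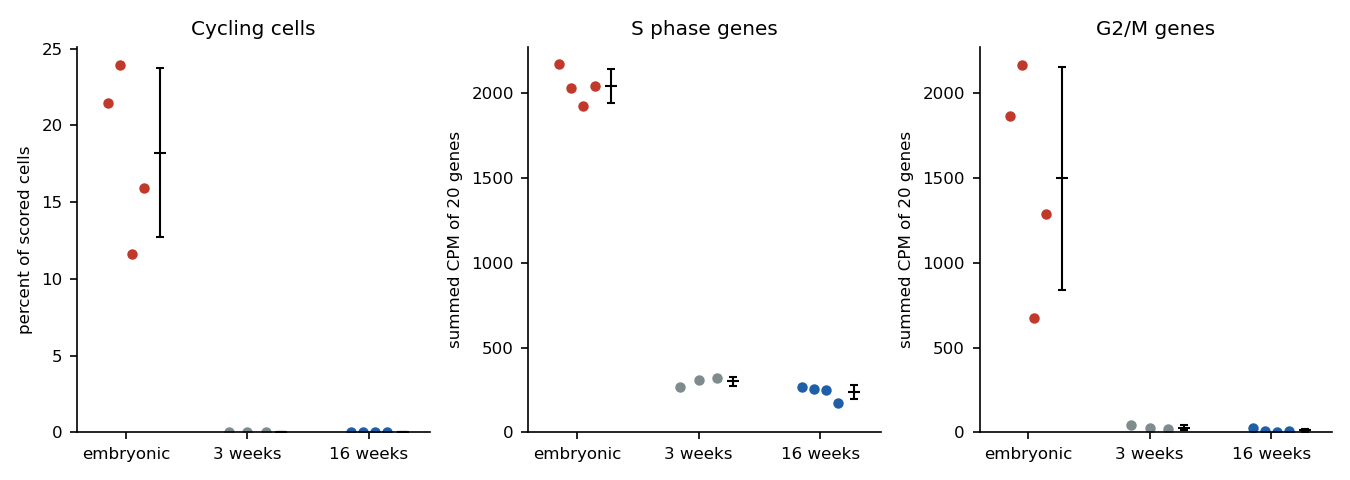
Share of scored cells called cycling (left, percent), summed CPM of 20 S phase genes (middle) and of 20 G2/M genes (right) in each cerebellum sample by age; points are region samples, black bars the mean and SD. Embryonic shares lie between 11.63% and 23.91%, and all shares at 3 and 16 weeks are 0.

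Genes of translation, respiration, glycolysis and the actin cytoskeleton fell together with the number of genes detected per cell and the mitochondrial share given above. Among 86 tested nuclear genes of oxidative phosphorylation 42 fell and 0 rose, with a median log2 change of -1.22. Cox4i1, a subunit of cytochrome oxidase, was at 533, 772, 728 and 539 CPM in embryos and at 229, 153, 150.4 and 116 CPM at 16 weeks (3.75-fold lower; adjusted p = 5.56e-04). Atp5b, a catalytic subunit of ATP synthase, fell 2.86-fold from 1445 ± 236 to 478 ± 62.97 CPM. The 42 falls became 27 without embryonic replicate 2 and at most 41 with another sample left out. Of the cytosolic ribosomal protein genes 34 of 81 fell and 0 rose, with a median of -1.31. Rplp0, of the ribosomal stalk, was at 760.4, 846, 916 and 713 CPM against 118, 167, 154 and 140.3 CPM (5.28-fold lower; adjusted p = 1.75e-05). Ribosomal protein genes have many processed pseudogenes, and how reads shared between such copies were assigned is not given in the sources used here, so single values such as that of Rpsa (7.91-fold lower, and not called without embryonic replicate 2 or 3, with adjusted p of up to 0.0581) are uncertain.

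Glycolysis genes fell in 9 of 18 cases, with a median of -1.46, and the 1 rise was the fructose transporter gene Slc2a5, which is also on the homeostatic list. Pkm, pyruvate kinase, was at 517, 674, 489 and 593 CPM in embryos and at 76.1, 84.98, 62.7 and 106 CPM at 16 weeks (6.53-fold lower; adjusted p = 3.68e-05). Aldoa, an aldolase, fell 5.38-fold and Tpi1, triosephosphate isomerase, 6.39-fold. Actin cytoskeleton genes fell in 16 of 27 cases and rose in 0, with a median of -1.15. Actb, beta-actin, was at 16601, 20028, 20583 and 16448 CPM against 5885, 5337, 5714 and 6108 CPM (3.03-fold lower; adjusted p = 9.63e-06), and Tmsb4x, which binds actin monomers, fell 3.16-fold. Cfl1, the filament-severing cofilin, fell 5.08-fold from 999 ± 129.8 to 187 ± 51.9 CPM, and Pfn1, profilin, 3.28-fold. Of the ferritin chains, Ftl1 fell 6.80-fold (adjusted p = 9.52e-06) and Fth1 lay at 1314 ± 249 and 884 ± 84.95 CPM without passing (adjusted p = 0.0536), and of 16 iron and heme genes 2 fell, and 1 to 3 did with 1 sample left out. In the Xist cells 7 of 84 respiration genes, 16 of 79 ribosomal protein genes, 5 of 17 glycolysis genes and 8 of 27 actin genes fell and 0 rose. Of 15 iron and heme genes tested there 1 fell and 0 rose.

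Some genes of the factors and signals that shape microglia rose or fell. Of 24 transcription factors 4 rose and 2 fell, beside 4.83% and 6.9% of all genes tested, so the falls were near the share of all genes. Mef2a, a MADS-box factor, was at 159, 186, 273 and 302 CPM in embryos and at 858, 834, 642 and 736 CPM at 16 weeks (3.53-fold higher; adjusted p = 5.30e-04), and further rises included Mef2c and Sall3. With 1 sample left out Mef2c lost its call in 7 of 8 fits and Sall3 in 3 (adjusted p up to 0.111 and 0.0571), and the rises of the list numbered 2 or 3, with 2 without embryonic replicate 2 or 16-week replicate 1. Spi1, which encodes the macrophage factor PU.1, was at 541, 594, 617 and 568 CPM against 255, 227, 263 and 215.3 CPM, a fall of 2.29-fold (adjusted p = 3.32e-04). All 16-week samples of Spi1 were below all embryonic samples, while in the Xist cells its log2 change was -0.82 with adjusted p = 0.0602. Tfec, a relative of TFEB, went from 43.6 ± 22.9 CPM to 0 reads. Irf8, needed for microglia to form, had 476 ± 12.9 and 583 ± 52.5 CPM and did not pass (adjusted p = 0.0844). Of 23 transcription factors tested in the Xist cells 2 rose and 1 fell.

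Of 17 TGF-beta signalling genes 4 rose and 0 fell. The receptor gene Tgfbr1 was at 647, 544, 634 and 628 CPM in embryos and at 1457, 1378, 1282 and 1343 CPM at 16 weeks (2.35-fold higher; adjusted p = 8.67e-05), and Tgfbr2 rose 1.93-fold. The feedback genes Pmepa1 and Skil rose 4.04-fold and 2.62-fold, and lost their calls in 1 and 7 of the 8 fits with 1 sample left out, Pmepa1 without embryonic replicate 2 (adjusted p up to 0.0512 and 0.134). Of 22 growth factor ligands and receptors 6 rose and 3 fell. Gas6, a ligand that bridges dying cells to TAM receptors, was at 866, 963, 1049 and 1063 CPM against 157, 129, 178 and 182 CPM (5.77-fold lower; adjusted p = 1.29e-05), whereas the TAM receptor gene Mertk rose. Il7r, an interleukin 7 receptor chain, rose 6.42-fold (adjusted p = 0.00845). Rises of the growth factor list numbered 3 to 5 with 1 sample left out, with 3 without embryonic replicate 2 or 4 or 16-week replicate 2. The Xist cells gave 1 rise and 0 falls among 17 TGF-beta genes. Among 20 growth factor genes they gave 1 rise and 3 falls.

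Chemokine receptors rose in 4 of 14 cases and fell in 2. Ccr6, the receptor of CCL20, was at 41.9, 17.6, 51.9 and 45.3 CPM in embryos and at 638, 290.2, 641 and 284 CPM at 16 weeks (12.5-fold higher; adjusted p = 5.44e-04), with 16-week replicates 1 and 3 above replicates 2 and 4. Cmklr1, the chemerin receptor, rose 8.98-fold, and Cx3cr1, the fractalkine receptor, 1.76-fold from 4647 ± 364 to 7745 ± 548 CPM. Ackr3 fell, from 406 reads to 2, and like Ccl3 below lost its call in 6 of the 8 fits with 1 sample left out (adjusted p up to 0.0696 and 0.0907). Of 19 chemokines and cytokines 6 rose and 4 fell. Ccl3, a chemokine of activated microglia, was at 68.3, 118, 74.2 and 150.2 CPM against 18.5, 25.1, 13.4 and 1.20 CPM (6.67-fold lower; adjusted p = 0.0343), and Ccl9 at 316, 348, 431 and 464 against 138, 85.3, 67.7 and 174 CPM (3.17-fold lower; adjusted p = 0.00606). Il6 had 0 embryonic reads and 23.4, 12.3, 1.68 and 24.6 CPM at 16 weeks, where 6.76% of thinned cells had a read. With 1 sample left out the rises of the chemokine and cytokine list numbered 2 to 6, with 2 without embryonic replicate 1 or 2 and 3 without 16-week replicate 2 or 3, and the falls of the chemokine receptors 1 or 2. The Xist cells gave 2 rises and 2 falls among 11 chemokine receptors. Among 18 chemokines and cytokines they gave 1 rise and 3 falls.

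Of 15 purinergic receptor and potassium channel genes 7 rose and 1, P2ry6, fell. P2ry13, which like P2ry12 senses ADP, was at 1336, 1537, 1641 and 1480 CPM in embryos and at 4748, 4396, 4363 and 3459 CPM at 16 weeks (2.99-fold higher; adjusted p = 2.55e-05). Kcnj2, an inward rectifier potassium channel, rose 9.002-fold. Rises of the purinergic and potassium channel list numbered 4 to 6 with 1 sample left out, the lowest without embryonic replicate 1. Of 14 members tested in the Xist cells 2 rose and 1 fell. Of 32 Siglec, Fc, lectin and Toll-like receptor genes 8 rose and 3 fell, the rises including Tlr2, Tlr3, Tlr4, Tlr7 and Tlr13 and their coreceptor Cd14, which rose 4.36-fold from 152 ± 55.3 to 630.4 ± 109 CPM (adjusted p = 9.74e-04). Falls of that list were near the 6.9% share of all genes tested, and numbered 5 without 16-week replicate 1. Of 29 members tested in the Xist cells 4 rose and 1 fell. Of 13 complement genes 2 rose and 3 fell. C1qa, a chain of C1q, rose 1.58-fold from 2498, 3015, 3018 and 2511 to 4330, 4128, 4015 and 4071 CPM, whereas its partner C1qb had 4916 ± 859 and 3916 ± 378 CPM and did not pass (adjusted p = 0.253). C3, the central complement protein, went from 8.37, 11.9, 8.87 and 7.97 CPM to 0 reads at 16 weeks (at least 126-fold lower), and had 67.02, 0 and 0.200 CPM in the 3 samples of 3 weeks, with all but a trace in the first of them. Of 10 complement genes tested in the Xist cells 3 rose and 0 fell.

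Antigen presentation genes rose in part. Of 21 MHC class I genes 6 rose and 0 fell. H2-D1 was at 546, 367, 386 and 271 CPM in embryos and at 679, 1435, 764 and 978 CPM at 16 weeks (2.58-fold higher; adjusted p = 0.0111), while B2m, the shared light chain, had 1841 ± 229 and 1674 ± 262 CPM (adjusted p = 0.840). H2-K1, H2-Q7, H2-T23, Tapbp and Pdia3 rose, where H2-Q7 shares long stretches with its neighbours and is uncertain. With 1 sample left out H2-Q7 lost its call in all 8 fits, H2-K1 in 4 and Pdia3 in 3 (adjusted p up to 0.124, 0.0712 and 0.0659), and 3 to 5 class I genes rose, with 3 without embryonic replicate 2 or 3. Of 9 MHC class II genes 4 rose and 0 fell, namely Ctss and H2-Ob, H2-DMb1 and H2-DMb2, whose proteins act in the loading of peptides. H2-DMb1 was at 31.1, 16.2, 10.5 and 7.56 CPM against 134, 74.6, 101 and 94.1 CPM (6.44-fold higher). In the Xist cells 0 of 20 class I and 2 of 9 class II genes passed.

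Type I interferon response genes passed in 0 of 18 cases by edgeR, with a median log2 change of 1.09 and 15 of 18 above 0. Of 18 immediate early or stress response genes 6 rose and 0 fell. Nfkbia, an inhibitor of NF-kappaB, was at 44.05, 52.5, 45 and 79.1 CPM in embryos and at 130, 131, 124 and 189 CPM at 16 weeks (2.75-fold higher; adjusted p = 0.00845), and Rgs1, Ier5, Klf6, Btg2 and Rhob rose. The number that rose ranged from 1 to 6 when single samples were left out, with 1 without embryonic replicate 1, and was 0 in the Xist cells. Such genes also respond to the handling of cells, whose duration is not given in the sources used here. Of 13 circadian clock genes Tef and Hlf rose, Tef by 7.63-fold (adjusted p = 0.00415), and Hlf lost its call in 3 of the 8 fits with 1 sample left out (adjusted p up to 0.0746). The Xist cells gave calls for 0 of 13 clock genes and 0 of 13 interferon response genes.

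Of 24 phagocytosis and synapse engulfment genes 4 rose and 7 fell. Rac2, a GTPase of the phagocyte cytoskeleton and oxidase, was at 1051, 1144, 1377 and 868 CPM in embryos and at 173, 299.5, 122 and 107 CPM at 16 weeks (6.003-fold lower; adjusted p = 7.11e-04). Mertk, Itgb2, Cd47 and Elmo1 rose, Itgb2, the chain shared by CD11b and other integrins, by 2.44-fold, and Trem2, a lipid receptor, had 1512 ± 195 and 1665 ± 347 CPM and did not pass (adjusted p = 0.452). Of 20 extracellular matrix genes 3 rose and 3 fell. Sdc4, a heparan sulphate proteoglycan, fell 13.6-fold (log2 -4.55 without 16-week replicate 2, in place of -3.77) and Serpine2, a protease inhibitor, 3.45-fold, while Srgn, the granule proteoglycan serglycin, rose 5.84-fold from 29.9, 31.2, 28.9 and 7.56 to 129.5, 126, 157 and 129 CPM. The Xist cells gave 3 rises and 5 falls among 23 phagocytosis and engulfment genes. Among 18 matrix genes they gave 2 rises and 3 falls.

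**Figure D3:**
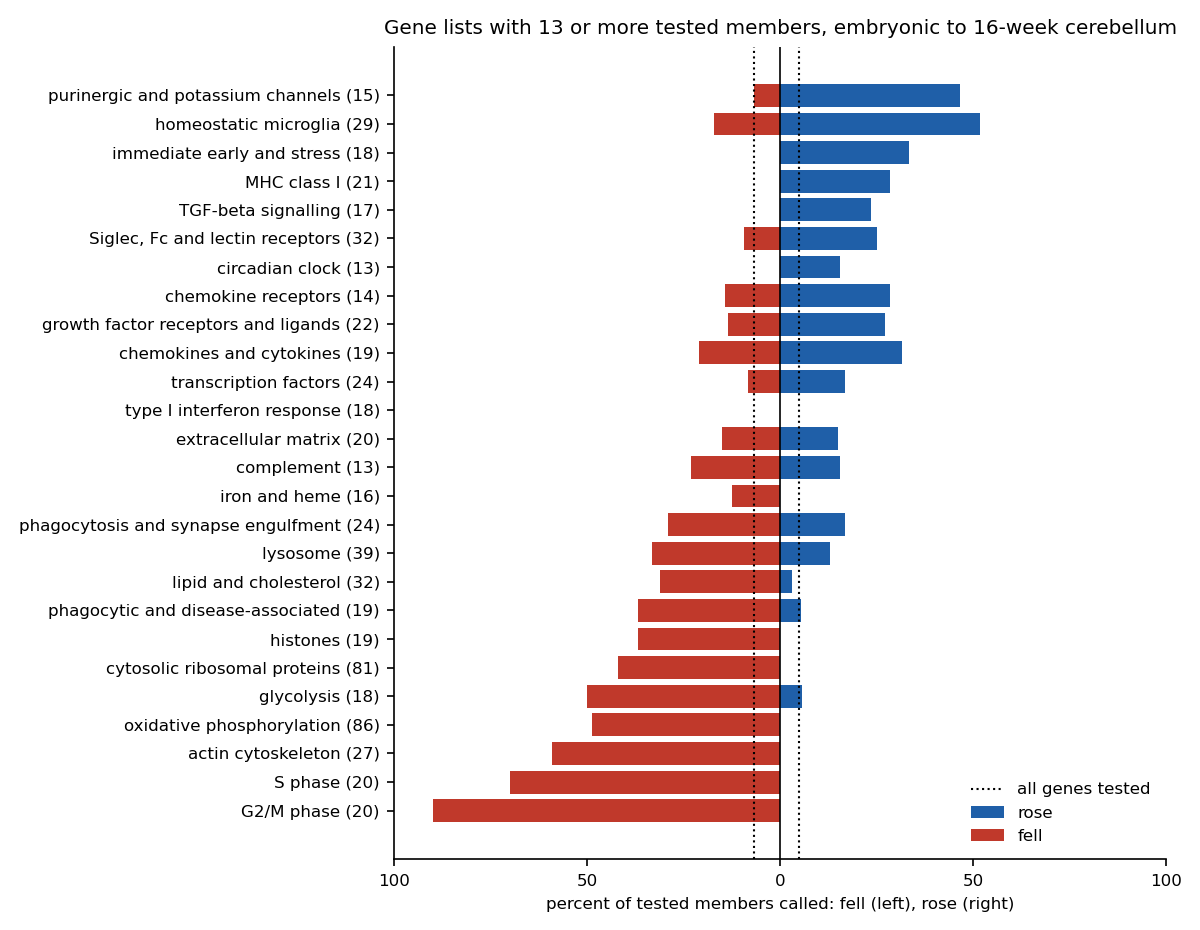
Percent of tested members (x axis) that rose (blue, right) or fell (red, left) from embryo to 16 weeks for each gene list with at least 13 tested members (y axis, number tested in brackets); dotted lines are the shares of all genes tested, 4.83% and 6.9%. G2/M genes, with 18 of 20, have the largest share of falls shown, and the homeostatic list, with 15 of 29, the largest share of rises.

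Markers of other cell types were mostly low, with exceptions in the border macrophage, glial, B cell and neutrophil lists. Border macrophage markers summed to 615 to 894 CPM in embryos, 218.4 to 415 at 3 weeks and 125 to 195 at 16 weeks, and 2 of 6 tested members fell, Mrc1 and the scavenger receptor gene Stab1, and 4 without 16-week replicate 4. Of the 14 genes of that list 7 had 0 reads at 16 weeks. Of the defining markers of these macrophages, Cd163 had 51 reads in the embryonic samples and 0 at 16 weeks, Lyve1 3 and 0, Pf4 28 and 0, and Ms4a7 1 and 0. F13a1 had 317 embryonic reads, nearly all in replicates 1 and 2, and Cbr2 53, all in replicate 1. Mrc1 had a read in 32.3% of thinned embryonic cells, against 1.71% for F13a1 and 1.18% for Cd163. CD206, its protein, was in the sorting panel, and which side of the gate was taken is not given in the sources used here.

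Erythroid markers summed to 0.057 to 21.6 CPM in embryos and 0 to 0.599 at 16 weeks, T and NK cell markers to 0.398 to 6.38 and 0 to 14.1, monocyte markers to 12.4 to 42.3 and 5.78 to 32.1, and cerebellar neuron markers to 2.42 to 7.38 and 1.40 to 5.16. Of these lists 2 of 6 tested monocyte genes (Plac8 and Itgal) and 1 of 1 cerebellar neuron gene (Pcp4) fell, and none of the erythroid, T or NK genes passed the filter on low counts. Broad neuron markers summed to 17.9 to 84.9 and 3.35 to 58.0 CPM, with Stmn2 at 4.43, 54.5, 6.72 and 4.69 CPM in the embryonic samples and 1 gene called in each direction, Snap25 up and Stmn1 down. Snap25 lost its call in 4 and Stmn1 in 7 of the 8 fits with 1 sample left out (adjusted p up to 0.0992 and 0.0975). Astrocyte and Bergmann glia markers summed to 50.2 to 68.1 CPM in embryos and to 126 to 274 at 16 weeks. The list held the glutamate transporter gene Slc1a3, which rose 7.34-fold and had a read in 41.6% of thinned 16-week cells, and Fabp7, which fell from 684 reads to 0 and lost its call without embryonic replicate 1 or 2 (adjusted p up to 0.0541). Oligodendrocyte markers summed to 116 to 183 and 107 to 159 CPM, and endothelial and mural markers to 34.4 to 106 and 16.2 to 38.9. Of the B cell list Ighm fell 2.20-fold from 1610 ± 141 to 693 ± 152 CPM and had a read in 97.7% of thinned embryonic cells, and Ighd fell too but lost its call in 4 of the 8 fits with 1 sample left out (adjusted p up to 0.0849). Neutrophil markers summed to 365 to 477 CPM in embryos and to 354 to 1075 CPM at 16 weeks, and most of the sum was Csf3r, which is also on the homeostatic list, at 363, 477, 458 and 365 and 784, 1075, 876 and 352 CPM. Its change did not pass the test (adjusted p = 0.0540) but did without 16-week replicate 4. The part of other cells in the results above was not tested.

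Changes in level went with changes in the share of cells that had a read, compared here at 40000 reads per cell, from medians of 388890 reads in an embryonic and 206965 in a 16-week cell. In the summed samples fewer cells with a transcript and less RNA per cell cannot be told apart. Csmd3 had a read in 1.71% of embryonic and 70.5% of 16-week cells, Lrrc3 in 4.59% and 51.7%, and Ccr6 in 12.7% and 53.5%. Thrsp and Mlph were found in 22.6% and 20.1% of 16-week cells and in 0% of embryonic cells. At 40000 reads per cell a transcript can be missed, so the share of cells that express these genes may be larger. Gpx3 was found in 72.04% and 0.595%, Emilin1 in 51.1% and 0%, and Igf1 in 32.5% and 0.568%. For Fcrls 67.7% of 16-week cells still had a read, and for Selplg and Tmem119 100% did, against 80.2% and 82.9% of embryonic cells. In cells that were not thinned the shares of Csmd3 were 4.45% and 77.6%. Thinning left 175 of 178 embryonic cells and 177 of 183 cells of 16 weeks.

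**Figure D4:**
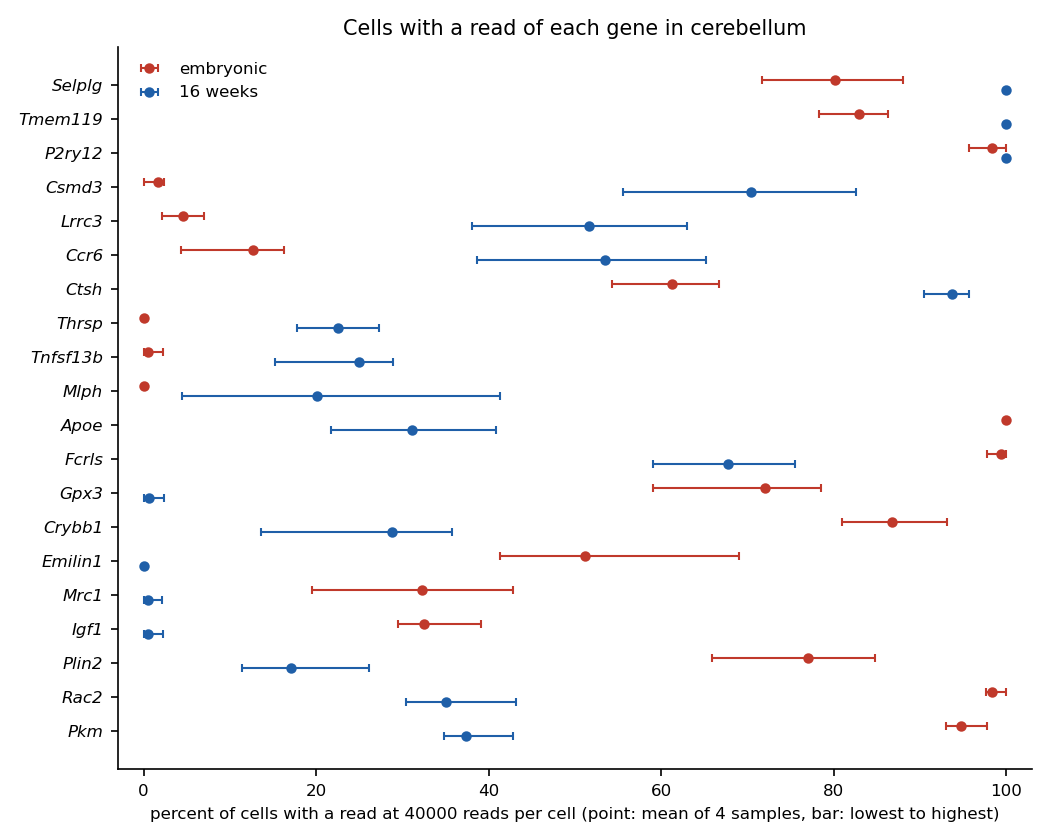
Percent of cells with at least 1 read after thinning to 40000 reads (x axis) for 20 genes (y axis) in embryonic (red) and 16-week (blue) cerebellum; points are the mean of 4 samples and bars the lowest and highest sample. Mlph, from 4.44% to 41.3%, varies most between the 16-week samples among the rises shown, and Apoe is in 100% of embryonic and 31.1% of 16-week cells.

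The 3-week samples, all on a plate of their own age, were set beside the other ages without a test. Selplg had 5873 ± 581 CPM (SD, n = 3) at 3 weeks against 5842 ± 617 at 16 weeks, P2ry12 8760 ± 289 against 8646 ± 304, and Ctss 8634 ± 273 against 10338 ± 616, and the 3-week samples of Selplg and P2ry12 lay within or across the 16-week range while those of Ctss lay below it. Spi1, Actb and Rplp0 had 247 ± 52.01, 6103 ± 406 and 169 ± 17.9 CPM at 3 weeks, near their 16-week levels. Apoe, Fcrls and Mrc1 lay between the embryonic and the 16-week samples at 3 weeks, with 3959 ± 409, 2843 ± 1020 and 60 ± 32.4 CPM. Csmd3, with 183 ± 145 CPM, also lay between them, and Mef2a, with 529 ± 115 CPM, reached into the 16-week range in 1 sample.

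Whether the cerebellar change differed from that of another region was asked with the spinal cord, whose cells of each age lay on the same plate as the cerebellar cells of that age. In the spinal cord alone 3.51% of 11836 genes rose and 4.37% fell. In a test of the difference of the 2 age changes over 14093 genes edgeR called 0 (0%), with a smallest adjusted p of 0.0963. The samples of the 2 regions were fitted there as separate samples, although they may share animals. Calls, SE and 95% intervals of this test do not take such sharing into account. With the replicate number as a block edgeR also called 0 of 14093 genes. An unadjusted p under 0.05 by edgeR was found for 956 genes, where 705 are expected with no difference in any gene. DESeq2, run without the filter on low counts, called 166 of 37779 genes. For Tmem119 the log2 change was 2.06 ± 0.10 in cerebellum and 2.22 ± 0.12 in spinal cord, and the difference, cerebellum minus spinal cord, was -0.14 (95% interval -0.47 to 0.19; adjusted p = 0.981). For Selplg the difference was 0.06 (95% interval -0.27 to 0.39; adjusted p = 1.00), and for P2ry12 -0.01 (95% interval -0.29 to 0.28; adjusted p = 1.00). For Ccl3 the interval was wide, with a difference of -2.37 (95% interval -6.93 to 2.19; adjusted p = 0.956).

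Of the genes called in cerebellum, 3 whose estimated change was unlike that in spinal cord are given as examples chosen after their values were seen. Their differences did not pass the test. The 95% intervals are per gene and not adjusted for that choice, so no difference between the regions is drawn from them. Ctsc rose from 483 ± 19.02 to 1513 ± 222 CPM in cerebellum and had 821 ± 121 and 1324 ± 145 CPM in spinal cord (SD, n = 4 each), a difference of 0.95 (95% interval 0.56 to 1.35; adjusted p = 0.213). Spi1 had 409 ± 81.1 and 289 ± 38.2 CPM in spinal cord, a difference of -0.79 (95% interval -1.25 to -0.33; adjusted p = 0.565). Ccl9 was at 389.9 ± 69.2 CPM in embryonic cerebellum and at 112 ± 31.8 CPM in embryonic spinal cord, and its difference was -1.95 (95% interval -3.25 to -0.65; adjusted p = 0.565). Mlph had 1.64 ± 1.65 and 46.7 ± 38.1 CPM in spinal cord. Embryonic spinal cord replicate 3 had 27 Xist cells and 0 Y cells, and the other 3 embryonic spinal cord samples had both.

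A comparison on other plates, chosen after the data were seen, set embryonic forebrain and midbrain against 16-week cortex, hippocampus and corpus callosum, with no plate and no sample in common with the cerebellum, though animals may be shared. There 6.2% of 15247 genes rose and 9.27% fell. Samples of different regions were fitted there as separate samples, although the labels say that regions were taken from the same mice. The SE and calls of that comparison may therefore look more certain than the number of animals allows. Of the 570 cerebellar rises 565 were tested there, and 347 rose and 1 fell. Of the 815 cerebellar falls 810 were tested there, and 597 fell and 0 rose. The 347 genes are also 347 of the 946 rises on those plates, and the 597 are 597 of 1413 falls. These regions differ between the ages, and as in the cerebellum 0 of their 16-week cells were Y cells. For Tmem119 the log2 change there was 2.30 ± 0.11, for Apoe -4.12 ± 0.27, for Fcrls -1.21 ± 0.17 and for Spi1 -0.43 ± 0.12.

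**Figure D5:**
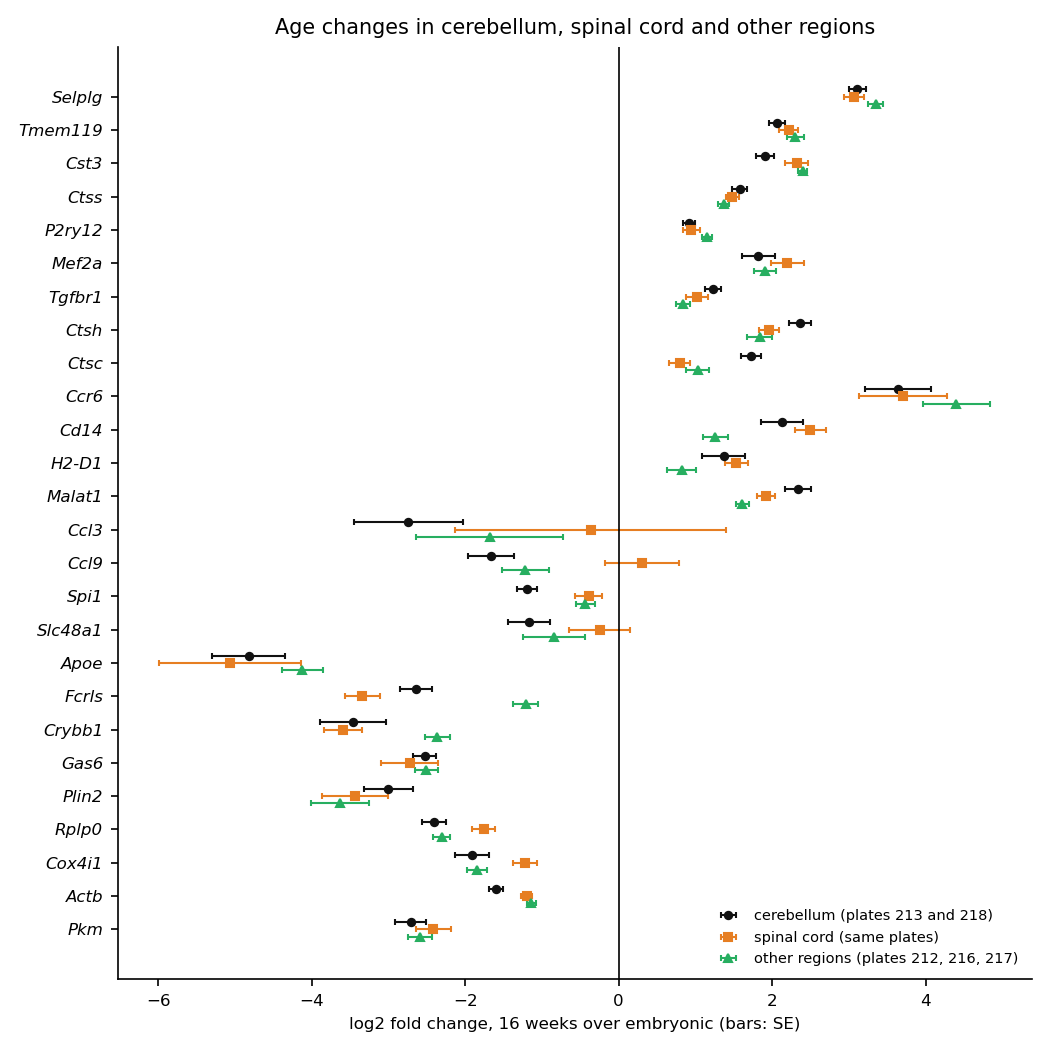
Log2 fold change from embryo to 16 weeks (x axis, bars SE) of 26 genes (y axis) in cerebellum (black circles), spinal cord on the same plates (orange squares) and other regions on other plates (green triangles). The 3 estimates have the same sign for each gene drawn except Ccl9, whose spinal cord value lies above 0, and Fcrls has its smallest fall in the other regions.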

How the data were processed

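Per the labels, 2688 wells of SmartSeq2 libraries on 384-well plates were deposited as 1 table of unnormalised read counts per gene and well, for which the submitters' processing notes name featureCounts 1.6.2, STAR 2.5.2b and the build GRCm38. The authors' table held 48587 gene rows and 92 spike-in rows; no strand setting is given, so overlapping and antisense genes cannot be told apart.

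The counts of wells in plate columns 1 and 2 contained those of same-row wells whose names start alike (A1 with A10 to A19, A2 with A20 to A24). These were subtracted in 224 wells, with 0 of 1960623 gene rows falling below 0, against 63.0% when the next row of the plate was subtracted. Wells with at least 500 genes and at most 20% mitochondrial counts were kept and summed per replicate label. No doublet caller was run, as single cells were sorted, and cells were not clustered.

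Region samples were fitted with edgeR 4.0.16 (R 4.3.3; TMM, filterByExpr, robust quasi-likelihood F test, Benjamini-Hochberg over all genes, threshold 0.05), after a test on simulated counts. Alternatives used DESeq2 1.42.0, limma 3.58.1, other filters and scaling, and single samples left out. SE is that of the fitted log2 change. Cycling shares were compared by an exact permutation test (scipy 1.17.1). No source says whether replicates are separate litters, so p-values measure only the spread between these samples.

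Named genes are the 12 rises and 12 falls of largest fold with non-overlapping samples and a mean of at least 50 CPM, the 6 of each direction with the largest difference in CPM (both leaving out mitochondrial, predicted and clone-named genes and spike-ins), up to 4 called genes of largest fold and 2 of highest level per list, and markers. Other genes are named to complete a count or were chosen after their values were seen. The members and the 38 lists were chosen with earlier results of these data known. Promoter windows are RefSeq's on GRCm38.p6. Some genes counted in the lists are not reported here by name.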

Additional observations from a re-analysis of the deposited data

Results flagged for a closer look

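In 16 of 339 groups of 4 cerebellum samples checked, 1 sample stood apart from the other 3 by Dixon's criterion, and chance alone does so in about 1 in 20 groups. Among the embryonic samples these were Cd9 in replicate 1 (511.7 CPM, low), Csmd3 (6.929 CPM) and Stmn2 (54.52 CPM) in replicate 2, both high, Cst3 (10902 CPM, high) and Slc48a1 (219.7 CPM) in replicate 3, and Srgn (7.556 CPM, low) and Tnfsf13b (0.41 CPM, high) in replicate 4. Among the 16-week samples they were Ccna2 in replicate 1 (0.7425 CPM), Apoc1 in replicate 2 (1.506 CPM), Ier5 (137 CPM), Mrc1 (1.047 CPM), Ptprc (680.5 CPM), Slc40a1 (549.6 CPM) and Srgn (157 CPM) in replicate 3, and Itgam (1165 CPM) and Nfkbia (188.6 CPM) in replicate 4. For Apoc1, Ccna2 and Mrc1 the sample named was the only 16-week sample with reads.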

How the results depend on the processing

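The 1385 genes called between the ages became 2813 with DESeq2, which fitted 30106 genes without the filter on low counts. Without plate columns 1 and 2 there were 919, and in the Xist cells (fewer cells and 10592 genes tested) 384. When single samples were left out 916 to 1283 were called, the lowest without embryonic replicate 2. Other filters, scalings and fits gave 1277 to 1972. With the replicate number as a block 811 genes were called (317 rises and 494 falls), on fewer residual degrees of freedom. The numbers cannot pair samples of the 2 ages by animal, as an embryo and a 16-week mouse are different animals. Deviations of same-numbered samples of the 2 ages correlated at -0.009, 0.011, 0.002 and 0. The difference in cycling share was -18.2197 percentage points with p = 0.125 in the exact permutation test with the block, and -20.4169 to -16.3219 with samples left out, and -28.9973 with the counts as deposited, where the embryonic SD was 25.3 and the 16-week mean 0.532%.

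The 0 genes whose age change differed between the regions became 166 with DESeq2, which fitted 37779 genes. They became 5 with no filter on low counts, 2 with the stricter filter on wells and 0 to 1 with samples left out. Changes of sign were found in genes not called. B2m had log2 changes of 0.005 as deposited, 0.067 in the Xist cells, 0.054 with limma and -0.162 to 0.015 with samples left out. The log2 change of Aldh1l1 was 0.363 without plate columns 1 and 2, 1.445 in the Xist cells, 0.66 without embryonic replicate 2, 0.17 and 0.029 without 16-week replicates 3 and 4, and at the lowest -1.223 without replicate 2 of that age. The log2 change of Pdgfrb was -0.031 as deposited, and in the Xist cells Cnp had 0.125 and Mag -0.014. Of 157 named genes called, 134 were tested in the Xist cells and 75 passed, and 112 passed with the block. The causes were not tested. Low counts limit genes near 1 read per sample.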
